A study of Homo sapiens with 6 samples.

Results

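The high-mobility-group (HMG) proteins are small, abundant, non-histone chromatin proteins. The set described here held the 10 protein-coding genes HMGN1, HMGN2, HMGN3, HMGN4, HMGN5, HMGA1, HMGA2, HMGB1, HMGB2 and HMGB3, found by symbol among the 60664 genes of the count tables. They were measured in D283 Med cells, an established human line from a Group 3 medulloblastoma that carries an amplified MYC gene. Poly(A)+ RNA was profiled in 3 libraries of cells given an LNA GapmeR against the long non-coding RNA lncMB3 (KD) and in 3 libraries of cells given a control GapmeR (SCR). A GapmeR is an antisense oligonucleotide that directs RNase H to a transcript, and both groups were transfected with one. All 6 libraries come from the same line. Nothing in the labels describes the 3 libraries of a group as independent cultures, so the spread behind each p-value may be technical. The level of lncMB3 itself was not analysed here, and directions rest on the labels KD and SCR.

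HMGN proteins bind directly to nucleosomes, where they compete with linker histone H1 and loosen the chromatin fibre. HMGN5 differs from its relatives by a long acidic tail that interacts with linker histones. HMGA proteins bind the minor groove of AT-rich DNA through short motifs called AT hooks and are high in embryonic and tumour cells. HMGB proteins bend DNA with a pair of HMG boxes that precede an acidic tail, and HMGB1 released from cells also acts as an inflammatory signal.

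The 5 HMGN genes share the core of the nucleosome-binding domain, which defines the class and is shown here so that HMGN5 can be set beside the others. Each line gives 60 coding bases of GENCODE release 29, 5′ to 3′ on the coding strand, with the 24 bases of the invariant core in capitals.
HMGN1: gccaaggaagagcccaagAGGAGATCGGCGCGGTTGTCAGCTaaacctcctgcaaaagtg
HMGN2: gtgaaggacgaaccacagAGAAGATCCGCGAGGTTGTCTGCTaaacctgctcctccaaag
HMGN3: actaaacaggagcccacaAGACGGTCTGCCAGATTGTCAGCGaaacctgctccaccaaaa
HMGN4: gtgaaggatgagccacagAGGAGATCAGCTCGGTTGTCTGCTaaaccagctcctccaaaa
HMGN5: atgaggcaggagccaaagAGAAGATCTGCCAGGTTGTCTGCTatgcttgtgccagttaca
All 5 cores encode the same residues. Relative to HMGN5, the core differed at 2 of 24 bases in HMGN2, 4 in HMGN4 and 5 in each of HMGN1 and HMGN3. Outside the core HMGN5 stands apart, with 282 codons against 90 to 100 in the other HMGN genes. Codons for acidic residues made up 36.2% of HMGN5, against 12.2% to 19% of the other 4 genes. Its coding sequence was 28.6% to 32.6% identical to those of the other HMGN genes over the full alignment. Its 846 coding bases against 270 to 300 in the others cap this figure, which therefore does not measure divergence of the shared part. HMGN4, known as a retrogene, was 86.3% identical to HMGN2. The stretch shown lies in 1 exon in HMGN4 and is interrupted by an intron in the other 4 genes. HMGA1 and HMGA2 each encoded 3 AT-hook cores, and the longest acidic run spanned 30 codons in HMGB1, 22 in HMGB2 and 20 in HMGB3.

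The libraries held 7765826 to 20035834 counts, with the fewest in KD library 1, where low genes are therefore measured least precisely. The cell type label was checked against markers. All 8 markers of Group 3 medulloblastoma passed the low-count filter. Their summed level was 2706 to 2790 CPM (counts scaled to library size) in KD and 2860 to 3099 CPM in SCR libraries, without overlap. By edgeR at an adjusted p of 0.05, 1 of the 8 was higher in KD (GABRA5) and 5 were lower. The 5, named to complete the count, were OTX2, CRX, NRL, IMPG2 and EYS. This is 75% called, against 31.7% of all genes tested, 15.9% higher and 15.9% lower. MYC, the largest part of the sum, had 1118 to 1259 CPM in KD and 1103 to 1278 CPM in SCR libraries and did not pass. WIF1, DKK2, ATOH1 and KCNA1, which mark other medulloblastoma subgroups, were listed at 0 in all 6 libraries, and the 6 markers of that list summed to 2.60 to 3.34 CPM in KD and 6.03 to 8.22 CPM in SCR libraries. Nearly all of that sum was GLI1, a Hedgehog pathway target, at 2.60 to 3.13 CPM in KD and 5.97 to 8.12 CPM in SCR libraries (2.29-fold lower in KD, adjusted p = 0.000487 by edgeR). The 4 glial markers, with MBP at 0, summed to 3.64 to 3.91 CPM in KD and 3.81 to 4.86 CPM in SCR libraries. OLIG2 made up nearly all of this sum, at 3.64 to 3.86 CPM in KD and 3.69 to 4.75 CPM in SCR libraries (adjusted p = 0.643 by edgeR). The 8 markers of fibroblasts, endothelium, blood and epithelium, of which COL3A1 was at 0, summed to 16.4 to 18.7 CPM in KD and 20.5 to 24.0 CPM in SCR libraries, without overlap. Most of it was COL1A1, a collagen gene, at 13.7 to 17.3 CPM in KD and 18.1 to 21.8 CPM in SCR libraries (1.28-fold lower in KD, adjusted p = 0.0315). The part of these marker sums in the results was not tested. In bulk RNA, fewer cells of a type and less RNA per cell cannot be told apart.

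All 10 HMG genes passed the low-count filter, and all but HMGN5 and HMGA2 lay at or above the 91.7th percentile of expression. Levels were compared between genes as CPM per kilobase of merged exons. HMGN2 averaged 329 ± 24.4 in KD and 313 ± 9.69 in SCR libraries on this scale (SD, n = 3 each), and only 91 of 14573 genes with a length had a higher mean over the 6 libraries. HMGA1 followed at 328 ± 12.7 in KD and 292 ± 12.8 in SCR libraries, and its 6 libraries overlapped those of HMGN2. HMGB2 (165 ± 22.4 in KD, 169 ± 19.97 in SCR), HMGB1 (117 ± 9.10 in KD, 96.2 ± 12.1 in SCR) and HMGN4 (57.7 ± 5.85 in KD, 60.2 ± 3.87 in SCR) came next, each without overlap with its neighbour. HMGN1, HMGN3 and HMGB3 followed, each overlapping its neighbour, with means of 44.8, 40.9 and 35.9 in KD and 36.8, 37.2 and 30.0 in SCR libraries. HMGA2, a fetal gene that is silent in most adult tissues, stood at 8.27 ± 0.356 in KD and 7.85 ± 0.517 in SCR libraries. HMGN5 was the lowest member, at 5.03 ± 0.915 in KD and 4.48 ± 1.21 in SCR libraries, near the middle of all tested genes (53.2nd percentile). With the longest transcript as length, 8 of the 10 ranks in SCR libraries stayed and HMGN1 and HMGN3 changed places, while the levels of HMGN2 and HMGA2 in SCR libraries became 525 and 14.9.

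The comparison of KD with SCR libraries asks how HMG transcripts differ once lncMB3 is targeted. By edgeR's quasi-likelihood test, 2 of the 10 genes passed an adjusted p of 0.05, both higher in KD (HMGN1 and HMGB1), and 0 were lower. Over all 14673 genes tested, 31.7% passed, 15.9% higher and 15.9% lower, so the share of HMG genes called (20%) did not exceed the background. The median log2 change of the 10 genes was 0.16, against 0.00028 over all genes tested, and 8 of the 10 had a positive change, against 50.1% of all genes. The groups did not overlap in 4 HMG genes, all higher in KD, against 46% of all genes tested in either direction, 22.9% higher and 23.1% lower in KD. The largest fold difference among the 10 was the 1.22-fold rise of HMGB1. With upper-quartile scaling, or without any 1 of 4 libraries (KD library 2, KD library 3, SCR library 2 or SCR library 3), none of the 10 genes passed.

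**Figure D1:**
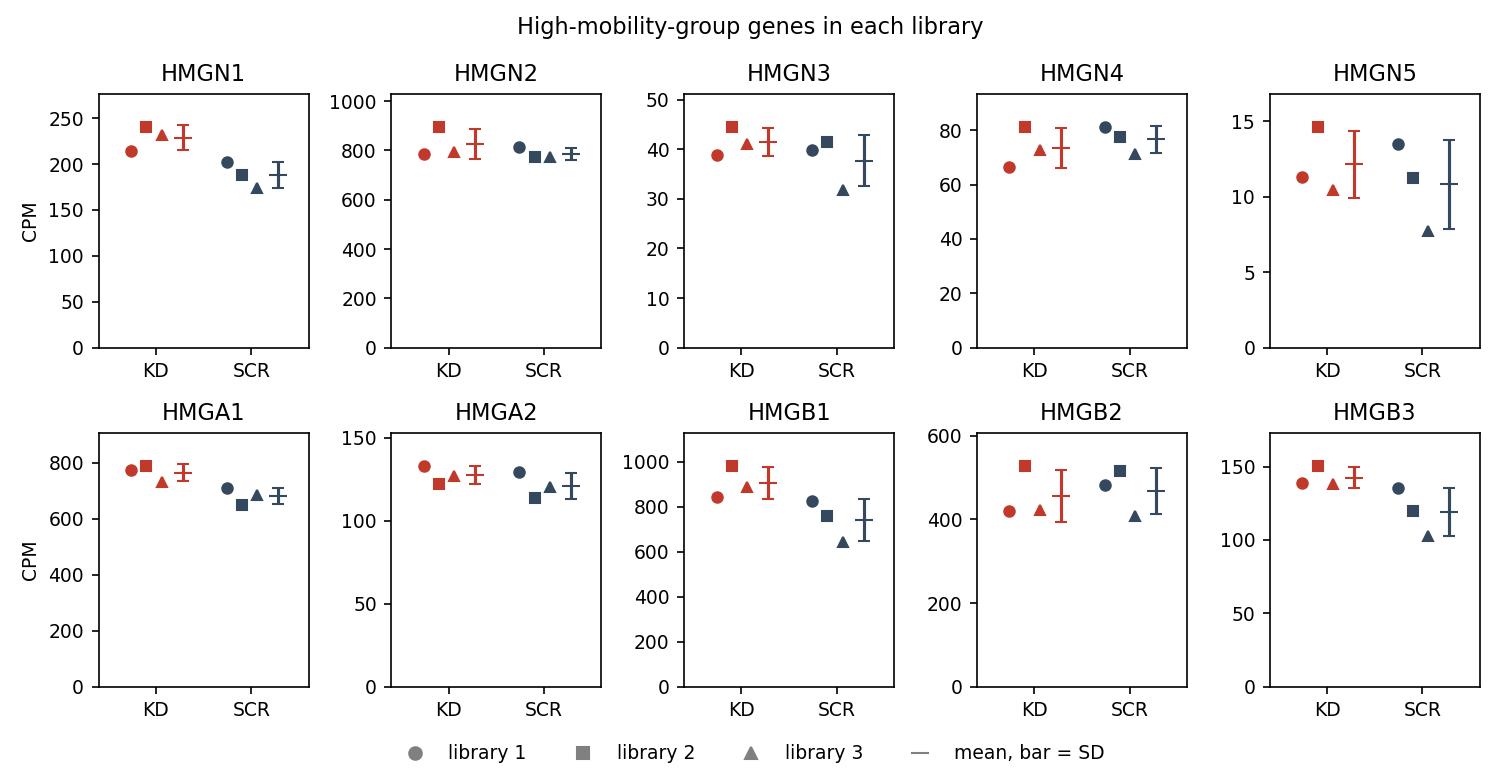
Expression in CPM of the 10 HMG genes in each library, with KD libraries left of SCR libraries, a marker shape for each library number, and the group mean with its SD beside the points. KD libraries lie above all SCR libraries for HMGN1, HMGA1, HMGB1 and HMGB3, and the groups overlap for the other 6 genes.

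HMGN5 (ENSG00000198157; GRCh38 chromosome X, 81113701 to 81201942, minus strand) was measured at 11.3, 14.7 and 10.5 CPM in KD libraries 1 to 3, against 13.5, 11.2 and 7.71 CPM in SCR libraries 1 to 3. The groups overlapped, with KD library 2 the highest and SCR library 3 the lowest of the 6. The means were 12.2 ± 2.21 CPM in KD and 10.8 ± 2.93 CPM in SCR libraries (SD, n = 3 each). The log2 change was 0.18 ± 0.18 (SE), with a 95% interval of -0.21 to 0.57 and an adjusted p of 0.486 by edgeR. In linear terms the interval ran from 0.863-fold to 1.48-fold. The counts behind these values were 87, 281 and 201 in KD and 231, 230 and 138 in SCR libraries, the fewest of any member. The sign of the change rested on single libraries, since the log2 change was -0.00035 without KD library 2 and -0.01 without SCR library 3 (adjusted p = 0.999 and 0.965), but 0.37 without SCR library 1 (adjusted p = 0.15).

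The position of those libraries was not particular to HMGN5. KD library 2 gave the highest KD value in 9 of the 10 HMG genes, with HMGA2 the exception, against 40.6% of all genes tested. SCR library 3 gave the lowest SCR value in 7 of the 10, against 34.6% of all genes tested. SCR library 1 gave the highest SCR value in 8 of the 10, against 37.3%. Over the 6 libraries the log2 CPM of HMGN5 correlated with that of HMGN3 at r = 0.87, of HMGB3 at 0.86 and of HMGB1 at 0.83, as a description over these 6 libraries, whose depths differ. The 5 named genes most like HMGN5 among 10984 with at least 5 CPM were TOP1MT (r = 0.991), ASRGL1 (0.99), ZNF324 (0.986), WBP4 (0.985) and CDCA5 (0.98). As the highest of so many correlations over 6 libraries, these r values are high by selection and were not tested. TOP1MT encodes the mitochondrial type I topoisomerase and CDCA5 the cohesion factor sororin.

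HMGN1 (ENSG00000205581; GRCh38 chromosome 21, 39342315 to 39349647, minus strand), a nucleosome-binding protein encoded in the Down syndrome region, was higher in KD. It had 214, 241 and 231 CPM in KD libraries 1 to 3, against 203, 188 and 174 CPM in SCR libraries 1 to 3. Every KD library lay above every SCR library, though KD library 1 and SCR library 1 were close. The rise was 1.22-fold (log2 change 0.28 ± 0.09, SE, adjusted p = 0.0225 by edgeR). The adjusted p was 0.0506 without KD library 2, 0.0794 without KD library 3, 0.0898 without SCR library 2, 0.107 without SCR library 3 and 0.0536 with upper-quartile scaling, while the log2 change stayed between 0.23 and 0.34 over all alternatives.

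The other HMGN genes did not pass the test. HMGN2, the most abundant HMGN transcript, had 788 to 897 CPM in KD and 771 to 814 CPM in SCR libraries (log2 change 0.07, 95% interval -0.11 to 0.26). HMGN3 had 38.9 to 44.5 CPM in KD and 31.9 to 41.5 CPM in SCR libraries (log2 change 0.14, interval -0.08 to 0.37). HMGN4, the retrogene, had 66.5 to 81.3 CPM in KD and 71.3 to 81.0 CPM in SCR libraries (log2 change -0.05, interval -0.25 to 0.14). Of these 3 intervals, that of HMGN3 includes the log2 change of 0.28 measured for HMGN1, and those of HMGN2 and HMGN4 end below it. The interval of HMGN1 itself, 0.10 to 0.47, overlaps all 3, and no difference between these genes was tested.

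Within the HMGN class, levels per kilobase were re-expressed as shares of the class sum, which do not depend on how libraries are scaled. The size of a share does depend on the length used. With the longest transcript, the SCR means of HMGN2 and HMGN4 were 525 and 62.6, against 313 and 60.2 with merged exons, which are used here. HMGN1 made up 9.30%, 9.10% and 9.78% in KD and 8.41%, 8.16% and 7.87% in SCR libraries 1 to 3. HMGN4 made up 11.6%, 12.3% and 12.3% in KD and 13.5%, 13.5% and 13.0% in SCR libraries. The groups therefore did not overlap for either gene, with HMGN1 taking the larger and HMGN4 the smaller share in KD. HMGN3 made up 8.50%, 8.48% and 8.73% in KD and 8.30%, 9.08% and 7.27% in SCR libraries, which overlapped. HMGN2 held 68.9% ± 0.685 in KD and 69.3% ± 1.598 in SCR libraries, and HMGN5 1.05% ± 0.118 in KD and 0.985% ± 0.227 in SCR libraries (SD, n = 3 each). The shares were chosen after seeing the data and were not tested, since with 3 libraries a group an exact permutation test cannot go below p = 0.1. Shares within a class are tied to each other, because they add up to the whole. How often such shares separate the groups elsewhere was not measured, and 46% of single genes tested did so in level.

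**Figure D2:**
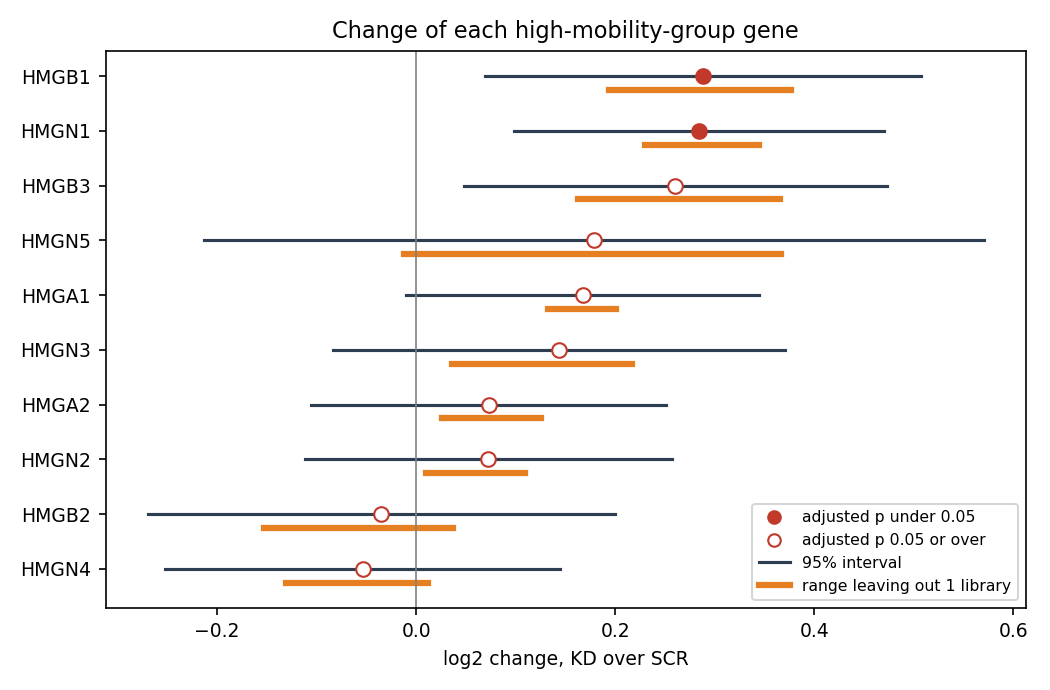
Log2 change of each HMG gene, KD over SCR, with its 95% interval (dark line), the range when 1 library is left out (orange bar) and filled points for an adjusted p under 0.05. HMGB1 (0.29) and HMGN1 (0.28) are filled with TMM scaling, as drawn, and neither passes with upper-quartile scaling, while the leave-one-out range of HMGN5 runs from -0.01 to 0.37.

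HMGA genes showed small positive changes that did not pass the test. HMGA1 (chromosome 6, 34236873 to 34246231) had 772, 789 and 731 CPM in KD libraries 1 to 3, against 708, 649 and 684 CPM in SCR libraries 1 to 3. The groups did not overlap, and the log2 change of 0.17 had a 95% interval of -0.01 to 0.34 (adjusted p = 0.138 by edgeR). HMGA2 (chromosome 12, 65824131 to 65966295) had 133, 122 and 127 CPM in KD and 129, 113 and 120 CPM in SCR libraries, which overlapped (log2 change 0.07, interval -0.11 to 0.25, adjusted p = 0.535). HMGA2 made up 2.54%, 2.29% and 2.56% of the HMGA class sum in KD libraries 1 to 3, against 2.68%, 2.57% and 2.59% in SCR libraries 1 to 3. The groups did not overlap in this share either, by a narrow margin, with HMGA2 taking the smaller share in KD.

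HMGB1 (ENSG00000189403; GRCh38 chromosome 13, 30456704 to 30617597, minus strand) was the second gene called. It had 846, 983 and 891 CPM in KD libraries 1 to 3, against 827, 758 and 642 CPM in SCR libraries 1 to 3. The KD libraries lay above the SCR libraries by a narrow margin, set by KD library 1 and SCR library 1. The rise was 1.22-fold (log2 change 0.29 ± 0.10, SE, adjusted p = 0.0437 by edgeR). Its call was lost without any single library other than SCR library 1, with adjusted p-values of 0.0529 without KD library 1, 0.102 without KD library 2, 0.101 without KD library 3, 0.11 without SCR library 2 and 0.204 without SCR library 3. It was also lost with upper-quartile scaling (0.0911) and with a filter of 1 CPM in 3 libraries (0.0501). The log2 change ranged from 0.19, without SCR library 3, to 0.38.

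HMGB3 and HMGB2, the proliferation-linked relatives of HMGB1, did not pass. HMGB3 (chromosome X, 150980509 to 150990775) had 139, 151 and 138 CPM in KD and 135, 119 and 102 CPM in SCR libraries, without overlap (log2 change 0.26 ± 0.10, SE, adjusted p = 0.0588 by edgeR). It passed with DESeq2 (adjusted p = 0.0478) and without SCR library 1 (0.011). HMGB2 (chromosome 4, 173331695 to 173335125) had 419, 529 and 423 CPM in KD and 483, 516 and 407 CPM in SCR libraries, which overlapped (log2 change -0.04, interval -0.27 to 0.20, adjusted p = 0.835).

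The balance between HMGB1 and HMGB2 also separated the groups without overlap. HMGB1 made up 37.1%, 35.8% and 38.1% of the class sum in KD libraries 1 to 3, against 34.0%, 31.3% and 32.5% in SCR libraries 1 to 3. HMGB2 made up 51.1%, 53.5% and 50.4% in KD, against 55.2%, 59.2% and 57.4% in SCR libraries. The share of HMGB3 overlapped, at 11.8%, 10.7% and 11.5% in KD and 10.8%, 9.59% and 10.1% in SCR libraries. The HMGB1 to HMGB2 ratio per kilobase was 0.716 ± 0.0443 in KD and 0.57 ± 0.0438 in SCR libraries (SD, n = 3 each), 1.26 times as high. As a ratio it shows unequal change of the pair and not which of them changed.

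**Figure D3:**
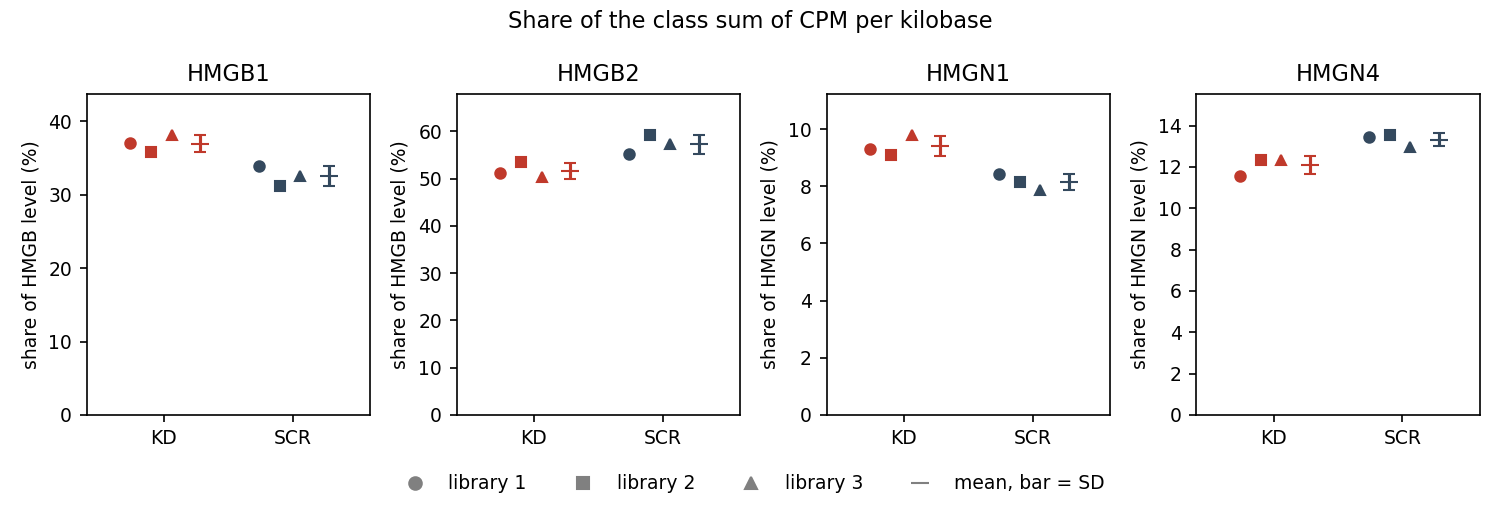
Share of the class sum of CPM per kilobase (percent) held by HMGB1 and HMGB2 among HMGB genes and by HMGN1 and HMGN4 among HMGN genes, in each KD and SCR library, with group mean and SD. In all 4 panels the groups do not overlap: HMGB1 (37.0% in KD, 32.6% in SCR) and HMGN1 (9.39% in KD, 8.15% in SCR) take larger shares in KD, and HMGB2 (51.7% in KD, 57.3% in SCR) and HMGN4 (12.1% in KD, 13.3% in SCR) smaller ones. The shares of HMGN2, HMGN3, HMGN5 and HMGB3, not drawn, overlapped between the groups.

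Reads from HMG genes can also match their processed pseudogenes, intronless copies of the mRNA, and RSEM divides such reads. By name there were 48 copies of HMGB1, 38 of HMGN2, 32 of HMGN1, 29 of HMGB3, 8 of HMGA1, 1 each of HMGN3 and HMGB2, and 0 of HMGN4, HMGN5 and HMGA2. Copies took 16.03% of the counts of HMGB1 plus its copies in KD and 15.7% in SCR libraries. For HMGN2 this was 1.32% in KD and 1.22% in SCR libraries, and for the other members it was at most 0.287% in either group. Nearly all copy counts of HMGB1 fell on HMGB1P6 (chromosome 15, 71164770 to 71165415; 12411 counts over the 6 libraries) and HMGB1P5 (3255 counts). The coding sequence of HMGB1 aligned to HMGB1P6 with 98.0% identity and a longest identical run of 230 bases. The number of reads that separate the pair was not counted. The ungapped stretch of 60 bases where the 2 differ most is given, coding bases 150 to 209 of HMGB1 counted from its start codon, with the 6 differing bases in capitals.
HMGB1: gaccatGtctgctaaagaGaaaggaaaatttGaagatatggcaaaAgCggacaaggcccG
HMGB1P6: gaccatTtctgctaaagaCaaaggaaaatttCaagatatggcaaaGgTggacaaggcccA
HMGB1P6 had 129, 156 and 127 CPM in KD and 115, 111 and 98.7 CPM in SCR libraries, and passed the test in the same direction as HMGB1 (log2 change 0.35 ± 0.10, SE, adjusted p = 0.0143 by edgeR). With the copies added to their members, the log2 change of HMGB1 was 0.29 (adjusted p = 0.0418) and that of HMGN1 0.28 (adjusted p = 0.0225). HMGN2P5, which differed from the HMGN2 coding sequence at 1 of 270 bases, had 9.93 ± 1.06 CPM in KD and 8.35 ± 0.384 CPM in SCR libraries (SD, n = 3 each) and did not pass (adjusted p = 0.198). Among genes that overlap a member on the annotation, HMGN3-AS1 shares 193 exonic bases with HMGN3 on the other strand and had 2 to 5 counts in KD and 5 to 11 counts in SCR libraries, against 299 to 854 counts of HMGN3 over the 6 libraries. No other overlapping gene had more than 1 count in any library.

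HMGN1, HMGB1 and HMGB3 followed each other over the 6 libraries, with r of log2 CPM of 0.97 for HMGN1 and HMGB1, 0.94 for HMGN1 and HMGB3 and 0.98 for HMGB1 and HMGB3. In all 3 the KD libraries lay above the SCR libraries, though HMGB3 did not pass the test, and the correlations are a description only. HMGA1, also higher in all KD libraries, correlated with them at 0.75 to 0.82, and HMGN5 at 0.68 to 0.86. The promoters of HMGN1, HMGB1 and HMGB3 are shown with that of HMGN5. They run from 250 bases before to 50 after a transcription start in RefSeq (GRCh38.p14). They were picked because the first 3 carry repeated CCAAT boxes and HMGN5 none, in a search added after seeing the values. CCAAT is the motif bound by the factor NF-Y. Capitals mark CCAAT or its reverse complement ATTGG, and all sequences read 5′ to 3′ on the gene's strand.
HMGN1, chr21:39349039-39349338, minus strand: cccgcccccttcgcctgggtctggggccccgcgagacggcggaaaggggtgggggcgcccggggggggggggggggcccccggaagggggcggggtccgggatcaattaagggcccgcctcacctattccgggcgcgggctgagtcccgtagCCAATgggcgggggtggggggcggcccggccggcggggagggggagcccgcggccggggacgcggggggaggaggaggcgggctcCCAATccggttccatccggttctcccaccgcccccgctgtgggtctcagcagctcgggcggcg
HMGB1, chr13:30465887-30466186, minus strand: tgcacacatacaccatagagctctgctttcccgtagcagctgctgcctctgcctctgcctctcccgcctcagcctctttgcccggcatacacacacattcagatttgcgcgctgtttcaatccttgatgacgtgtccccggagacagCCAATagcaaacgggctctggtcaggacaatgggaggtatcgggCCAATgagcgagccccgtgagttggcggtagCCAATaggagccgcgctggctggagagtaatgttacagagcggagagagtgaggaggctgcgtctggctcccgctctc
HMGB3, chrX:150983085-150983384, plus strand: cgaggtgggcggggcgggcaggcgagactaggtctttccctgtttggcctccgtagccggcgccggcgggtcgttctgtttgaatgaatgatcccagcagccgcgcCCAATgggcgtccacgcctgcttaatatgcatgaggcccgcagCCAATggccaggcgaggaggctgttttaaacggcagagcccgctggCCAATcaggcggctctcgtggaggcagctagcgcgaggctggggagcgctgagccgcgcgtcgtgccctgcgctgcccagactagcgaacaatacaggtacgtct
HMGN5, chrX:81201864-81202163, minus strand: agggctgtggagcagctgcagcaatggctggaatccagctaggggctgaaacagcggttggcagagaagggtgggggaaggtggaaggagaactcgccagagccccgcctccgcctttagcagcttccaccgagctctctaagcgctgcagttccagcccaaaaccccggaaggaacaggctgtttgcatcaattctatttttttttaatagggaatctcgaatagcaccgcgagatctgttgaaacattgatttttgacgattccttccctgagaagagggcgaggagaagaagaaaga
Of 4 motifs searched on both strands, only CCAAT is marked, because it recurs in each of the first 3 promoters. The others were CACGTG (the E-box bound by MYC), GGGCGG (bound by SP1, and able to share letters with the reverse form of CCAAT) and TATAAA (bound by the basal machinery). CCAAT occurred 2 times in the HMGN1 promoter and 3 times in each of the HMGB1 and HMGB3 promoters shown. GGGCGG, which is not marked, occurred 6 times in the HMGN1 promoter and 2 times in the HMGB3 promoter shown. It occurred 0 times in the HMGB1 and HMGN5 promoters shown. Of 35116 RefSeq promoters of the same length, 34.6% held at least 1 CCAAT, 10.8% at least 2 and 3.26% at least 3. HMGB1 and HMGB3 have further RefSeq starts whose promoters held 1 or 0. The promoters shown for them are thus those with the most, and the shares over all promoters are no measure for promoters picked this way. RefSeq promoters were found for 8 of the 10 members, all but HMGA2 and HMGB2, and CCAAT was present in 6 of the 8. These include HMGN3, with 2, and HMGN2 and HMGA1, with 1 per promoter, whose expression did not pass the test. Counted by promoter, CCAAT was found in 8 of the 12 promoters of these members (66.7%, against 34.6% of all promoters) and GGGCGG also in 8 of 12 (66.7%, against 45.0%). CACGTG was found in 1 of 12, that of HMGN2 (8.33%, against 7.26% of all promoters), and so was TATAAA (against 11.5% of all promoters). A match describes the letters only, and HMGN4 and HMGN5 lack CCAAT within this window alone.

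H1-10, a linker histone of the protein family that HMGN proteins displace from nucleosomes, was lower in KD. It had 111, 120 and 96.7 CPM in KD libraries 1 to 3, against 132, 174 and 177 CPM in SCR libraries 1 to 3. Every KD library lay below every SCR library, and the fall was 1.48-fold (log2 change -0.56 ± 0.11, SE, adjusted p = 0.00237 by edgeR). The call held under all 13 alternatives. H1-2, whose gene belongs to the replication-dependent group that mostly lacks poly(A) tails and is poorly captured by poly(A)+ RNA, had 7.71 ± 2.54 CPM in KD and 6.53 ± 0.601 CPM in SCR libraries (SD, n = 3 each, adjusted p = 0.259). Of 9 linker histones reported here, 2 passed the low-count filter. The sum of HMGN1 to HMGN5 per kilobase was 478 ± 35.7 in KD and 452 ± 20.2 in SCR libraries, which overlapped. Most of this sum was HMGN2, which did not pass, and any balance of the HMGN sum with linker histones was not tested.

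Other genes with HMG-type boxes, leaving out the SOX and TCF families, moved in both directions. Of 18 listed genes 15 passed the low-count filter, 5 rose and 2 fell (46.7% called, against 31.7% of all genes tested), with a median log2 change of 0.05. TFAM, which packages mitochondrial DNA, had 87.3, 87.2 and 98.6 CPM in KD and 74.1, 67.4 and 59.9 CPM in SCR libraries, a rise of 1.36-fold (adjusted p = 0.00347 by edgeR). UBTF, the upstream binding factor of RNA polymerase I, had 341, 335 and 333 CPM in KD and 289, 249 and 260 CPM in SCR libraries, a rise of 1.26-fold (adjusted p = 0.00788, and 0.0653 without SCR library 2). The other rises, named because they complete the count, were SSRP1, a subunit of the histone chaperone FACT (1.25-fold, adjusted p = 0.00909, and 0.0581 without SCR library 2), HMGXB3 (1.198-fold, adjusted p = 0.0243) and SMARCE1, a subunit of BAF remodelling complexes (1.17-fold, adjusted p = 0.0424). The calls of HMGXB3 and SMARCE1 were lost under 6 and 8 of 13 alternatives, for both without KD library 1, KD library 3, SCR library 2 or SCR library 3 (highest adjusted p = 0.112 for HMGXB3 and 0.176 for SMARCE1). The falls were HBP1, a repressor of cell cycle genes, at 13.1 ± 0.653 CPM in KD and 18.5 ± 0.623 CPM in SCR libraries (SD, n = 3 each, adjusted p = 0.00274), and BBX (1.35-fold, adjusted p = 0.01). HMGB4, a testis gene of the HMGB class, was listed at 0 in all 6 libraries.

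Genes that act with HMGB proteins were measured from lists of their partners. Of 11 receptors and partners of extracellular HMGB1, 3 passed the low-count filter, 0 rose and 1 fell, where 15.9% of all genes tested fell. TLR4 had 1 count and TLR2 8 counts over the 6 libraries, those of TLR2 all in KD, and neither gene passed the filter. Without a low-count filter 2 genes of this list were called, against 1 with it. AGER, which encodes the receptor RAGE and is named after its values were seen, had 2.48 ± 0.688 CPM in KD and 3.15 ± 0.467 CPM in SCR libraries (SD, n = 3 each, adjusted p = 0.385 by edgeR). CXCL12, a chemokine that forms a complex with HMGB1, fell 1.62-fold, with 6.11, 7.67 and 5.79 CPM in KD and 10.1, 10.9 and 11.0 CPM in SCR libraries (adjusted p = 0.00243). Of 5 genes of the SET complex, which contains HMGB2, 4 passed the filter, 2 rose and 0 fell, where 15.9% of all genes tested rose. SET rose 1.30-fold, to 1158 ± 0.645 CPM in KD, against 890 ± 84.2 CPM in SCR libraries, and NME1, a nucleoside diphosphate kinase, rose 1.33-fold, to 568 ± 76.1 CPM in KD, against 426 ± 39.7 CPM in SCR libraries (SD, n = 3 each, adjusted p = 0.0059 and 0.00828).

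HMGA2 is a classic target of the let-7 microRNAs, whose maturation LIN28 proteins block. Of 14 genes of this axis 12 passed the low-count filter, 3 rose and 0 fell (25% called, against 31.7% of all genes tested), with a median log2 change of 0.18. LIN28B rose 1.37-fold, to 21.7 ± 3.56 CPM in KD, against 15.9 ± 0.533 CPM in SCR libraries (SD, n = 3 each, adjusted p = 0.0113 by edgeR). ARID3B, a further let-7 target, rose 1.25-fold (adjusted p = 0.00916), and TUT7, a uridylyl transferase, 1.35-fold (adjusted p = 0.0273). The call of LIN28B was lost without KD library 3 or SCR library 2 (highest adjusted p = 0.088), and that of TUT7 without KD library 1, KD library 3, SCR library 2 or SCR library 3 (highest adjusted p = 0.169). HMGA2 itself did not pass.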

How the data were processed

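Per the submitters' processing notes, the tools were STAR 2.7.9a, RSEM and Trim Galore 0.6.4, with GRCh38.p13. No source used here gives the RSEM version, annotation or strand setting. The authors deposited whole-number expected counts for 60708 genes per library, read here as RSEM estimates rounded before deposit. The 44 pseudoautosomal copies on Y were added to X, leaving 60664 genes. Symbols were matched for 60463 of them, and coordinates and exon lengths for 58396 come from GENCODE release 29 (GRCh38, 1-based).

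The test of KD against SCR was edgeR's quasi-likelihood F test (edgeR 4.0.16 in R 4.3.3, TMM scaling, filterByExpr, no covariate), 2-sided, with Benjamini-Hochberg adjustment across the 14673 genes kept and a threshold of 0.05. Standard errors and 95% intervals were derived from the F statistic. CPM use TMM-scaled totals. The biological coefficient of variation was 8.91%. Within each group, counts of any pair of libraries differed beyond sampling noise, with chi-square over its degrees of freedom of 2.73 to 16.5. Alternatives used RLE and upper-quartile scaling, other filters, DESeq2 1.42.0, limma-voom 3.58.1, a replicate block, leave-one-out fits and summed pseudogene copies. The test was tried on simulated data. It recovered 59 of 100 genes changed 1.5-fold and 83 of 100 changed 2-fold, and 11 of 153 calls were false. The changes of the members were smaller than these, so a member that did not pass may still have changed. Coding sequences were aligned with edlib 1.3.9.post1.

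Members and gene lists were chosen with earlier results of these data known. Named genes were the members, up to 3 called genes per list with the smallest adjusted p, copies and overlapping genes, and the genes most like HMGN5 and HMGN1. Others are said to complete a count. Results on 1 item of the gene lists are not reported here.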

Additional observations from a re-analysis of the deposited data

How the results depend on the processing

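Of the 10 members, 2 passed. With an adjusted p under 0.01 the count was 0, with upper-quartile scaling 0 and with a filter of 1 CPM in 3 libraries 1. It was 0 to 3 when 1 library was left out. It stayed at 2 with RLE scaling, no filter, limma-voom and summed copies, and was 3 with DESeq2. All genes called numbered 4657, against 2459 with an adjusted p under 0.01, 2704 to 5114 leaving out 1 library (2704 without SCR library 2 and 2891 without SCR library 3), and 4576 with upper-quartile scaling, which split as 1773 higher and 2803 lower in place of 2328 and 2329. Upper-quartile scaling moved the median log2 change of all genes to -0.06. Genes called in the context lists numbered 17 (12 higher and 5 lower, or 9 and 8 with upper-quartile scaling), and 9 to 22 leaving out 1 library, with 9 without SCR library 2. Leaving out 1 library gave log2 changes of -0.013 to 0.37 for HMGN5, -0.13 to 0.012 for HMGN4 and -0.15 to 0.037 for HMGB2, whose signs therefore turned. Signs of all 10 members were kept under every alternative that used all 6 libraries.

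Pairing of KD with SCR libraries by replicate number was not evident, with correlations of deviations of 0.03, 0.10 and -0.03 for numbers 1 to 3. Not every library correlated best with its own number, though number 2 gave the highest value of all KD and SCR combinations. Low values of this kind cannot exclude pairing, which the labels do not state. With the replicate block 3 members and 4742 genes were called, and HMGB3 passed (log2 change 0.27, adjusted p = 0.0392). Depth limits HMGN5 most, with 87 counts in KD library 1.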

Other observations

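Other architectural chromatin proteins were mostly not called. All 17 listed passed the low-count filter, 2 rose and 1 fell, which is 17.6% against 31.7% of all genes tested. NCL, the nucleolar protein nucleolin, had 2788 ± 49.4 CPM in KD and 1948 ± 215 CPM in SCR libraries (SD, n = 3 each), a rise of 1.43-fold (adjusted p = 0.00141 by edgeR). NPM1, the nucleolar histone chaperone nucleophosmin, rose 1.27-fold, to 3533 ± 417 CPM in KD, against 2787 ± 286 CPM in SCR libraries (adjusted p = 0.0264). SATB1, an organiser of chromatin loops, fell 1.25-fold, to 39.7 ± 3.52 CPM in KD, against 49.2 ± 4.22 CPM in SCR libraries (adjusted p = 0.0222). The calls of NPM1 and SATB1 were each lost without KD library 2, SCR library 2 or SCR library 3, and that of NPM1 also without KD library 3 and with upper-quartile scaling (highest adjusted p = 0.115 for NPM1 and 0.106 for SATB1). The heterochromatin proteins CBX1, CBX3 and CBX5 and the cohesin subunits RAD21, SMC1A, SMC3 and STAG2, named after their values were seen, did not pass.

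The 3 named genes most like HMGN1 over the 6 libraries were SDHD, a subunit of succinate dehydrogenase, NOL12, a nucleolar protein, and C12orf29, each with r of 0.999 in log2 CPM, high by selection among 10984 genes. Their log2 changes of 0.36, 0.49 and 0.46 have the sign of HMGN1, which choosing them by likeness to HMGN1 over the same libraries sets.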
